A study of Mus musculus with 4 samples.

Results

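Dense clusters of phospho-CREB regions away from promoters were examined after 1 h of forskolin in the pre-osteoblast line MC3T3-E1, from mouse. The clusters were chosen by the deposited peak calls themselves. Peaks of the 4 libraries were merged into regions where they shared 1 bp or more, and regions with a peak in both forskolin lists and a centre more than 1 kb from every protein-coding transcription start site (TSS) were kept. Neighbouring regions whose centres lay 12500 bp or less apart were linked into chains, and chains of 3 or more were taken. This gave 1096 regions in 326 chains, out of 9773 distal regions of both forskolin lists (11.2%) and 28335 regions in all. Because the forskolin lists, the distance to a TSS and the spacing made the selection, the number, size and position of the chains and their forskolin scores are descriptions, with no test read from them. The vehicle lists and the DNA sequence played no part in it, beyond the merging of vehicle peaks into the regions.

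The groups were 2 libraries of cells given DMSO vehicle and 2 of cells given 100 nM forskolin, an activator of adenylyl cyclase, the enzyme that makes cAMP. All were immunoprecipitated with an antibody against CREB phosphorylated at serine 133. The labels speak of biological replicates of the line, and say nothing more of separate cultures, so differences between libraries may be technical. The lists held 14686 and 10180 peaks under vehicle and 25566 and 19371 under forskolin. Each peak carries a score whose scale is not stated, and no read totals are given, so depth is not known directly. Some scores are given here with a percentile, the share of peaks of the same list with an equal or lower score. Scores of different lists are printed side by side as deposited, and their ratios do not measure a change. Coordinates are in build mm9. Since peak calls are not expression, they do not test the pre-osteoblast label.

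CREB is a basic leucine zipper factor that binds the cAMP response element (CRE) and, once phosphorylated by protein kinase A, recruits the coactivators CBP and p300. Regulatory regions far from promoters often lie in groups, several of them around or inside the same gene, and stitching neighbours within a set distance is a common way to delimit such groups. In bone-forming cells the cAMP pathway is the main route by which parathyroid hormone (PTH) acts on transcription.

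The sequences that follow show the centres of 8 members that the results below return to. Each is the 200 bp around the centre of the member with the highest lower forskolin percentile in its chain, on the plus strand of mm9. They are drawn from the largest chains (Lif, Fam125b and Ddc), from chains near listed target genes (Nr4a1 and Nfil3), from the highest-scoring chain (Pla1a), from a chain with no vehicle peak (1600012P17Rik) and from a chain called throughout under vehicle (Ankrd44). Capitals mark the CRE core TGACG, the AP-1 site TGAGTCA and the RUNX site TGTGGT, each read on either strand.

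Lif chain, member 8 (chr11:4208794-4208993): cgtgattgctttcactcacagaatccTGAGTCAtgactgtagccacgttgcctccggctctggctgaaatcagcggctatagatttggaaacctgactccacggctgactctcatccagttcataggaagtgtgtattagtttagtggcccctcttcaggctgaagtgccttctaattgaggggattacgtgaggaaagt
Fam125b chain, member 1 (chr2:33573473-33573672): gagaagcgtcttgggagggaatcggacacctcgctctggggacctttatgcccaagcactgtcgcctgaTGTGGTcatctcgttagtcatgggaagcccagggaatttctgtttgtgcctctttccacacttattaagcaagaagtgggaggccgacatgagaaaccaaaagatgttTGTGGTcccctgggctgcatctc
Ddc chain, member 4 (chr11:11737634-11737833): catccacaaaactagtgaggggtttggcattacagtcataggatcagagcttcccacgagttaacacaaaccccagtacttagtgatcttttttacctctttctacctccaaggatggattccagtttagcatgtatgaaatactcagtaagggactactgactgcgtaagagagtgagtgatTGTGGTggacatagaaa
Nr4a1 chain, member 2 (chr15:101076829-101077028): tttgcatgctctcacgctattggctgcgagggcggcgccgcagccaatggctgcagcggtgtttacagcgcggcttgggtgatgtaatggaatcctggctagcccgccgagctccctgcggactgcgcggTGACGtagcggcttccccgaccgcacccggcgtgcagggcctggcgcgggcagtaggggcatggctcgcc
Nfil3 chain, member 4 (chr13:53104292-53104491): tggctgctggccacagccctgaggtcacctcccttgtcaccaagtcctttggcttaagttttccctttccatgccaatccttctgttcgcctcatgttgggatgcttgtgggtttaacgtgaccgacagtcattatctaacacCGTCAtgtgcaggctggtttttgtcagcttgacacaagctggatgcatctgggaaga
Pla1a chain, member 1 (chr16:38394370-38394569): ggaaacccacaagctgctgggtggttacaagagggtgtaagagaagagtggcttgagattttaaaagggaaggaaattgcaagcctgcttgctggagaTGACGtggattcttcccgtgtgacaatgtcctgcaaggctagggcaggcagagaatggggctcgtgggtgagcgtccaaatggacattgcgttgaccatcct
1600012P17Rik chain, member 3 (chr1:160978000-160978199): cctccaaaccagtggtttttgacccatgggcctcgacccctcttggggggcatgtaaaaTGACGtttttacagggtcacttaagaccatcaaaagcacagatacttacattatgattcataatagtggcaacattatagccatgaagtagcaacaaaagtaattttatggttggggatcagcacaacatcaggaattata
Ankrd44 chain, member 3 (chr1:54963367-54963566): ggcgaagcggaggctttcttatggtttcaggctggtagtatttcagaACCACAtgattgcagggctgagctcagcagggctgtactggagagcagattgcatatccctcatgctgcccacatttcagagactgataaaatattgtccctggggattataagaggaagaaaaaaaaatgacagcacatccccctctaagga

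The windows of the Nr4a1, Nfil3, Pla1a and 1600012P17Rik members each hold 1 CRE core, that of Nfil3 on the minus strand. The Lif window holds an AP-1 site and no CRE core. In the Fam125b, Ddc and Ankrd44 windows neither was found, and RUNX sites were the marked motif. A full CRE, TGACGTCA, was found in 38 of the 1096 members. Of those in chains described by name, 4 are shown here with their flanks and the CRE in capitals, chosen after the motif search.

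Nfil3 chain, member 3 (chr13:53097126-53097173): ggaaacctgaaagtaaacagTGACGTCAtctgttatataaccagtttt
Ece1 chain, member 4 (chr4:137420926-137420973): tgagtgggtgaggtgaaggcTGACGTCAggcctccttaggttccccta
Smad3 chain, member 2 (chr9:63651283-63651330): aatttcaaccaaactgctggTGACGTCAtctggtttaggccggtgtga
1600012P17Rik chain, member 2 (chr1:160966719-160966766): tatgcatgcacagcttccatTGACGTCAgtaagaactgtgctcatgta

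Most chains were short, and a small number held many regions. There were 246 chains of 3 regions, 58 of 4, 13 of 5, 4 of 6, 3 of 7 and 2 of 8. A further 1100 distal pairs and 6477 lone distal regions fell below the minimum. The chains spanned 1975 to 47240 bp, with a median of 15104 bp, and 5242 kb in all. Centres of neighbouring members lay a median of 6759 bp apart (range 699 to 12482), and 30 of the 770 neighbouring pairs lay under 1 kb apart. Just outside the limit, the closest neighbours that did not link were 12510 bp apart. The member nearest to a TSS lay 1007 bp from it, and the farthest region left out as proximal lay at 1000 bp.

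The share between genes was larger for chained regions than for unchained distal regions of the same forskolin calls. Of the members, 664 (60.6%) were intergenic, 410 (37.4%) intronic and 22 (2.01%) exonic, counting protein-coding genes. The 8677 unchained regions were 53.8% intergenic and 42.9% intronic. A TSS lay within 10 kb of 22.9% of members and 27.5% of unchained regions, and over 100 kb away for 12% and 16.3%. The rule leaves out regions within 1 kb of a TSS before it links neighbours, so these positions depend on it in part and are given as a description. The median distance to a TSS was 26510 bp for members and 24300 bp for unchained regions. Among the chains, 155 overlapped a protein-coding gene body and 171 did not. A TSS lay inside the span of 52 chains, and 6 of the 326 spans held a region within 1 kb of a TSS that was called in both forskolin lists. The intervals given below for shares of regions treat regions as independent, although members of a chain are neighbours, so they describe counting error in these libraries only.

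Forskolin scores were higher in chains of more regions, which is given as a description. In forskolin replicate 1 the median percentile was 55.6 for lone regions, 62.1 for pairs, 63.7 in chains of 3, 66.4 in chains of 4 and 71.6 in chains of 5 or more. In forskolin replicate 2 it was 42.2, 49.0, 51.9, 57.0 and 63.4. The vehicle lists, which the selection did not use, gave a less regular order among the regions they called. In vehicle replicate 1 the medians were 38.9, 42.5, 44.3, 40.7 and 49.0, and in vehicle replicate 2 they were 35.8, 35.8, 35.8, 40.1 and 48.7. The quartile ranges of all these classes overlapped widely. In all, 9.67% of members and 5.01% of unchained regions stood in the top 10% of both forskolin lists. Across the 1096 members, percentiles of the forskolin replicates had a Pearson r of 0.791, a description over regions that share the same libraries.

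**Figure D1:**
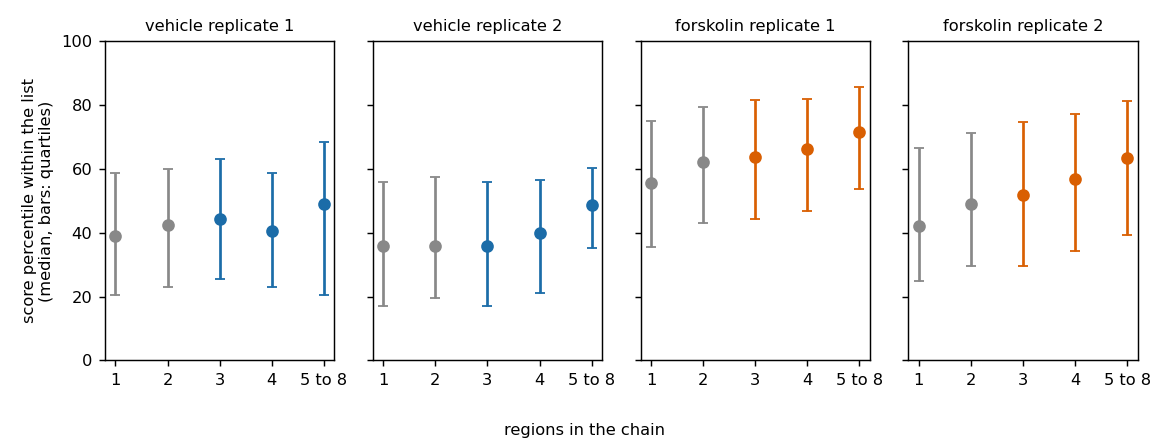
Score percentile within each of the 4 lists (vertical axis, percent; points are medians and bars quartiles) against the number of regions in the chain (horizontal axis), with lone and paired regions in grey. The medians of the forskolin panels run from 55.6 to 71.6 and from 42.2 to 63.4, while the vehicle panels, which hold only regions called under vehicle, run from 38.9 to 49.0 and from 35.8 to 48.7.

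Vehicle peaks were found at chained and unchained regions in near-equal shares under the rule used here, and other rules gave other differences. No vehicle peak was present at 508 of the 1096 members (46.4%, Wilson 95% interval 43.4 to 49.3), 263 (24.0%) were called in 1 vehicle list and 325 (29.7%) in both. The share without a vehicle peak was 46.2% of all 9773 distal regions of both forskolin lists, and also 46.2% of the unchained ones. The difference between chained and unchained regions was 0.159 points (Newcombe 95% interval -2.96 to 3.30). By library, vehicle replicate 1 had a peak at 50.9% of members and 51.1% of unchained regions, and vehicle replicate 2 at 32.4% and 32.9%. Within the chains, the share without a vehicle peak was 47.6% (44.0 to 51.2) in chains of 3, 46.1% (39.8 to 52.5) in chains of 4 and 39.7% (31.6 to 48.4) in chains of 5 or more. Without forskolin replicate 2, when 1 forskolin peak sufficed, there were 3120 chained regions and the difference was -3.85 points (-5.78 to -1.93), fewer of the chained regions then being free of vehicle peaks. With centres 5 kb or less apart, which left 66 regions, it was -13.0 points (-23.2 to -0.912). With equal numbers of peaks taken from the top of each list it was 3.655 points (-2.85 to 10.41). With only the highest-ranked region of each chain it was -13.4 points (-18.4 to -8.07), a choice that takes the strongest of more regions in longer chains. Vehicle replicate 1, the longer vehicle list, sets much of the share itself, which was 67.6% without it.

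**Figure D2:**
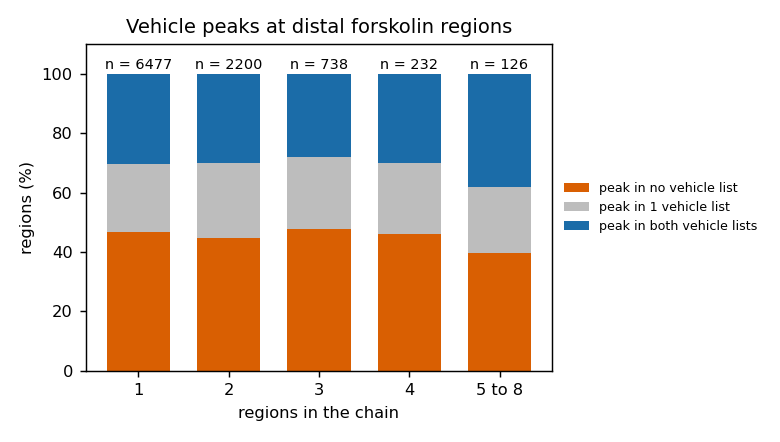
Share of distal regions of both forskolin lists (vertical axis, percent) with a peak in no, 1 or both vehicle lists, by the number of regions in the chain (horizontal axis, n above each bar). The part without a vehicle peak is between 44.9% and 47.6% for 1 to 4 regions and 39.7% for the 126 regions in chains of 5 or more.

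Single chains usually combined regions with and without a vehicle peak. Such mixed chains numbered 243 of 326 (74.5%, Wilson 95% interval 69.5 to 79.0). With 46.4% of members lacking a vehicle peak and 3 or more members per chain, frequent mixing would arise from those shares alone. No excess over them was tested. In 35 chains (10.7%, 7.82 to 14.6) no member had a vehicle peak, in 9 (2.76%, 1.46 to 5.16) every member was called in both vehicle lists, and in the remaining 39 every member had a peak in at least 1 vehicle list. Of the 770 neighbouring pairs inside chains, 54.4% were alike in having or lacking a vehicle peak, against 57.7% of the 1100 unchained pairs. Neighbouring pairs of the same chain share members, and this difference was not tested. Scores were also uneven along a chain, with no comparison made to regions outside chains. The gap between the highest and the lowest member, by the lower of the forskolin percentiles, had a median of 44.4 points over chains. In 153 chains a member above the 50th percentile of both forskolin lists shared the chain with a member at or below it in both. Only 52 of the 326 chains had every member above it in both lists, and 84 held a member in the top 10% of both.

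Of the 10 largest chains, 6 overlapped a protein-coding gene, and the other four are called by the gene with the nearest TSS, as a position only. Lif, which encodes a cytokine of the interleukin 6 family that responds to PTH in osteoblasts, had 8 members over 47.2 kb of chromosome 11 (4161887 to 4209126), from an intron of the gene to 41796 bp downstream of a TSS. Scores differed widely along it. Member 8, at the far end (4208661 to 4209126), scored 18.3 and 10.8 under vehicle and 158.0 and 88.8 under forskolin, at percentiles of 76.8, 53.1, 99 and 97.7. Member 7 (4199738 to 4200082) scored 9.7 and 10.3 against 109.1 and 75.7, at percentiles 40.7 and 49.7 against 97.5 and 96.7. Its neighbour, member 6, was in the middle of the forskolin lists (46.8 and 42.2) and absent from vehicle replicate 2. Members 1 and 5 had no vehicle peak. A CRE core was found in members 1, 4, 5 and 7, of which members 4 and 7 were called in both vehicle lists.

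The other chain of 8 overlapped Fam125b, which encodes an ESCRT-I subunit, and the nearest TSS was that of Lmx1b, a LIM-homeobox gene, at 77542 bp. It covered 43.1 kb of chromosome 2 (33573347 to 33616457), and 5 of its members had no vehicle peak. Member 1 scored 14.4 and 11.7 under vehicle and 85.9 and 60.6 under forskolin. Member 2, which lacked a vehicle peak, scored 43.4 and 37.9, at percentiles 87.4 and 87.7. Members 2 and 6 held a CRE core, and no member held an AP-1 site.

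Ddc, encoding aromatic amino acid decarboxylase, had all 7 members of its chain in introns (chromosome 11, 11720776 to 11762851). The median over its members of the lower forskolin percentile was 85.8, the highest among the 10 largest chains. Its member 4 (11737544 to 11737924) scored 18.1 and 14.1 under vehicle and 200.7 and 150.8 under forskolin, at percentile 99.5 of both forskolin lists. Members 2 and 4 had peaks in both vehicle lists, and the other five had none under vehicle. Counting only regions over 2.5 kb from a TSS left fewer than 3 linked members of this chain, since internal TSS of the gene are close by.

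Between genes on chromosome 17, 37340 bp or more upstream of the TSS of Map4k3, a kinase gene of the MAP kinase cascades, lay a chain of 7 (81164610 to 81207803). Its member 4 had no vehicle peak and scored 53.9 and 47.5 under forskolin, and the other six had a peak in at least 1 vehicle list. A CRE core was found in 4 of the 7 and an AP-1 site in 3, with both in member 7.

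A stretch of chromosome 8 held 3 chains. The chain with Irf2bp2 as the nearest TSS had 6 members (129041046 to 129075381), every one with a vehicle peak, and a second chain of 4 followed (129118362 to 129138582), with a member 1200 bp from an Irf2bp2 TSS. Together they held 10 of the 11 distal forskolin regions within 97.5 kb. Irf2bp2 encodes a transcriptional corepressor. Farther along, and 83888 bp or more from the TSS of Tomm20, a mitochondrial import receptor gene, stood a chain of 7 (129350315 to 129386010). Its member 4 ranked highest, with scores of 19.3 and 16.6 under vehicle and 107.6 and 71.6 under forskolin.

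Of the remaining large chains, that near Dlg1, a scaffold protein gene, had a CRE core or an AP-1 site in 0 of its 6 members. Over all 1096 members 52.8% held neither motif, and in 34 of the 326 chains no member had either. At Itga11, which encodes a collagen-binding integrin subunit, 5 of 6 members had no vehicle peak. The exception, in an intron (chromosome 9, 62532065 to 62532514), scored 10.9 and 7.6 under vehicle and 40.6 and 33.7 under forskolin, and was the highest-ranked of the chain. Gxylt2, a xylosyltransferase gene, had 5 intronic members, of which the 2 called under vehicle also ranked highest under forskolin.

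**Figure D3:**
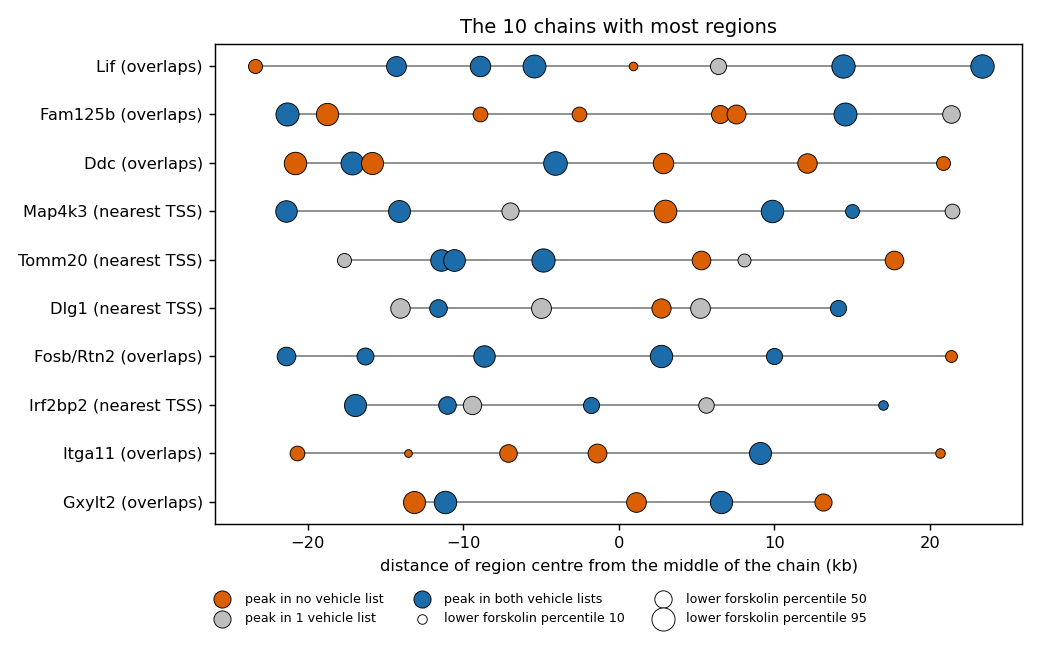
Regions of the 10 largest chains, by distance of the region's centre from the middle of the chain (horizontal axis, kb); each row is a chain with the gene it overlaps or, failing that, the nearest TSS, and the grey line is its span. Colour gives the number of vehicle lists with a peak and area the lower of the forskolin percentiles; rows hold 5 to 8 regions, and in 9 of the 10 rows regions with and without a vehicle peak share a chain.

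Chains near genes of the cAMP response included those of Fos, Fosb, Nr4a1 and Nfil3. Fos, an AP-1 subunit gene, stood between a pair of chains on chromosome 12. Upstream, 3 members lay at -18508, -11571 and -5010 bp from a TSS (86796176 to 86809997). Member 1 scored 20, 21.1, 68.5 and 56.5 (the vehicle replicates, then the forskolin replicates) and held 3 CRE cores. Members 2 and 3 had no vehicle peak and scored 58.7 and 26.8, and 91.2 and 64.0. Downstream, members lay 11165, 17339 and 22831 bp from a TSS (86826859 to 86838899), and the middle member was among the weakest forskolin peaks of all, at percentiles 0.3 and 1.0. Fosb, its paralogue, had 6 members across 43.1 kb of chromosome 7 (19881178 to 19924301) that also overlap Rtn2, a reticulon gene, and 5 of them were called in both vehicle lists. Those in a Fosb intron (1316 bp from a TSS) and upstream at -10079 bp held 3 CRE cores each. They scored 21.1, 26.5, 38.0 and 28.2, and 21.8, 19.5, 47.0 and 38.6, in the same order of libraries.

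Nr4a1, which encodes an orphan nuclear receptor induced by cAMP, had a chain of 4 upstream on chromosome 15 (101071286 to 101091159), of which members 1 and 3 had no vehicle peak. Member 1 was nearer to a TSS of Grasp. Member 2, at -20348 bp, scored 41.1, 35.9, 122.9 and 110.1, within the top 10% of all 4 lists at percentiles 94.0, 93.5, 98.0 and 98.7. Member 4, at -6286 bp, was low in the vehicle lists (6.5 and 9.0, percentiles 8.7 and 38.0) and high in the forskolin lists (96.7 and 57.8, percentiles 96.8 and 94.2). Percentiles of lists of different length do not measure a change. Nfil3, the gene of a leucine zipper repressor, had 4 members from -1022 to -27950 bp on chromosome 13 (53077296 to 53104582), 3 of them without a vehicle peak. The far member alone was called under vehicle and scored 6.5, 8.5, 79.7 and 57.1. A second chain of 3 at the neighbouring Auh gene, all without vehicle peaks, brought this stretch to 7 members in 108 kb.

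Genes of the PTH response and of the bone matrix also had chains nearby. Alpl, encoding the alkaline phosphatase of mineralizing bone, and the adjacent Ece1, an endothelin-converting enzyme gene, shared 3 chains with 11 members in 173 kb of chromosome 4 (137291331 to 137464321), and this was the largest group of chains spaced 100 kb or less apart. Members 1 and 2 of the Alpl chain lay nearest to a TSS of Rap1gap (7472 and 8306 bp), and members 3 and 4 to one of Alpl. All members of the Ece1 chains lay nearest to a TSS of Ece1. Counting only regions over 2.5 kb from a TSS left fewer than 3 linked members of the Alpl chain. No vehicle peak was found at 8 of the 11 members, and 2 were in both vehicle lists. The strongest was in an Ece1 intron (137420774 to 137421084), with the full CRE shown above, a score of 10.7 in vehicle replicate 1, none in vehicle replicate 2, and 73.3 and 55.1 under forskolin. Sparc, the osteonectin gene, had 4 members on both sides of a TSS (chromosome 11, 55219455 to 55242179). Its member 1 scored 10.2 in vehicle replicate 1, was not called in vehicle replicate 2, and scored 63.0 and 26.2 under forskolin.

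Smad3, the gene of a TGF-beta signal transducer, had 4 members from -35848 to -60364 bp (chromosome 9, 63641494 to 63666323), and the member with the full CRE scored 61.3 and 41.3 under forskolin against 5.8 and no peak under vehicle. At Lrp6, a Wnt co-receptor gene, the member in the neighbouring intergenic space (chromosome 6, 134389504 to 134389928) scored 11.1, 10.3, 246.1 and 119.8. This member lay nearest to a TSS of Bcl2l14, at 25233 bp. It ranked at percentiles 50.4 and 49.7 under vehicle and 99.7 and 99 under forskolin, while both exonic members of that chain had no vehicle peak. The chain of Tnfsf11, which encodes the osteoclast cytokine RANKL, had 3 members, all without a vehicle peak, at -68368, -75375 and -76544 bp. The farthest scored 64.9 and 58.5 under forskolin, at percentiles 93.3 and 94.3, and was the highest of the 3. The chain between Itga3, an integrin gene, and Dlx3, a homeobox gene of bone and skin, had 3 members with lower scores, at most 26.0 and 16.5 under forskolin.

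The 5 chains with the highest forskolin ranks had 3 or 4 members each. The median over members of the lower forskolin percentile was 97.3 at Pla1a (a phospholipase gene), 95.6 near Nfatc2 (a calcium-regulated transcription factor gene), 93.8 at the upstream Fos chain, 93.5 at Ankrd44 and 93.1 near Mrpl33. At Pla1a (chromosome 16, 38394304 to 38407095) member 1 scored 22.0, 22.9, 133.4 and 117.7, and member 2, without a vehicle peak, scored 114.1 and 84.0. Near Nfatc2, 3 of the 4 members ranked at percentile 93.0 or higher in both forskolin lists, and the fourth, at the end, stood at 4.3 and 10.2. All 3 intronic members at Ankrd44 (chromosome 1, 54945128 to 54963661) were called in both vehicle lists, yet at percentiles of 10.8 to 30.1 in vehicle replicate 1 and 35.8 to 58.7 in vehicle replicate 2, against 85.8 to 97.9 under forskolin.

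Of the 35 chains without any vehicle peak, the largest had 4 members each, near 1600012P17Rik (with Pappa2, a protease gene of the insulin-like growth factor system, within 100 kb) and in Mamdc2. The former scored 10.3 to 58.0 in forskolin replicate 1 and 6.2 to 23.4 in forskolin replicate 2. Chains of 3 near Kcne4, a potassium channel subunit gene, near Stac2 and at Crispld2 were the next. At Kcne4 all 3 members held a CRE core, and member 3 scored 95.5 and 86.7. Of the 3 members near Stac2, 1 matched other places in the genome, and without it the chain fell below 3. At the opposite end, 5 of the 9 chains called throughout in both vehicle lists, taken by size and then rank, lay at Ankrd44, Cd74, Col15a1, Diap1 and Gm20388. Gm20388 is a long gene model that also spans the Crispld2 chain. The nearest TSS to its chain here, that of Fam92b, was 87532 bp away. Cd74, the invariant chain gene of antigen presentation, had 3 members within 1975 bp, which became fewer when peaks within 500 bp were joined. Its member 1 scored 61.5, 43.9, 122.0 and 85.4, at percentiles of 97.3, 95.6, 98.0 and 97.4.

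Which chains are found depends on how deep the lists go. With equal numbers of peaks taken from the top of each list, 223 of the 1096 members and 20 of the 35 chains described remained as chains. The chains of Lif, Fam125b, Ddc, Nr4a1, Lrp6, Tnfsf11 and Sparc and the upstream Fos chain were kept, while those of Map4k3, Fosb, Itga11, Nfil3, Alpl, Ece1, Smad3 and Itga3 and the downstream Fos chain were not, nor were 4 of the 5 chosen for having no vehicle peak.

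Most motifs were found in chained and unchained distal regions in shares that differed by less than their counting error. The CRE core was present within 100 bp of the centre in 33.1% of members and 33.1% of unchained regions (difference -0.0247 points, Newcombe 95% interval -2.92 to 2.98), and in 5.99% of 2103 windows of the same size 2 kb to the side that overlapped no region. AP-1 sites were found in 19.1% and 20.1% (difference -1.02 points, -3.39 to 1.55), against 3.57% of those side windows. With only the highest-ranked region of each chain, the CRE core difference was 12.3 points (6.81 to 17.8). That choice takes the strongest of more regions in longer chains, and its part in this difference was not tested. Without forskolin replicate 2 the AP-1 difference was -1.68 points (-3.19 to -0.118). RUNX sites were present in 33.8% and 34.0% (side windows 15.6%), TEAD sites (GGAATG) in 17.2% and 18.7% (9.89%), and the full CRE in 3.47% and 3.95% (0.190%). Over all 28335 regions of the series the CRE core was found in 29.1% and the AP-1 site in 13.8%. Of the 15 motifs compared between chained and unchained regions, the GC box (GGGCGG) alone had an interval that did not include 0, with 12.2% against 8.48% (3.74 points, 1.84 to 5.89), and no allowance was made for the number of motifs. The median GC content of the 200 bp was 50.5% in members and 49.5% in unchained regions.

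**Figure D4:**
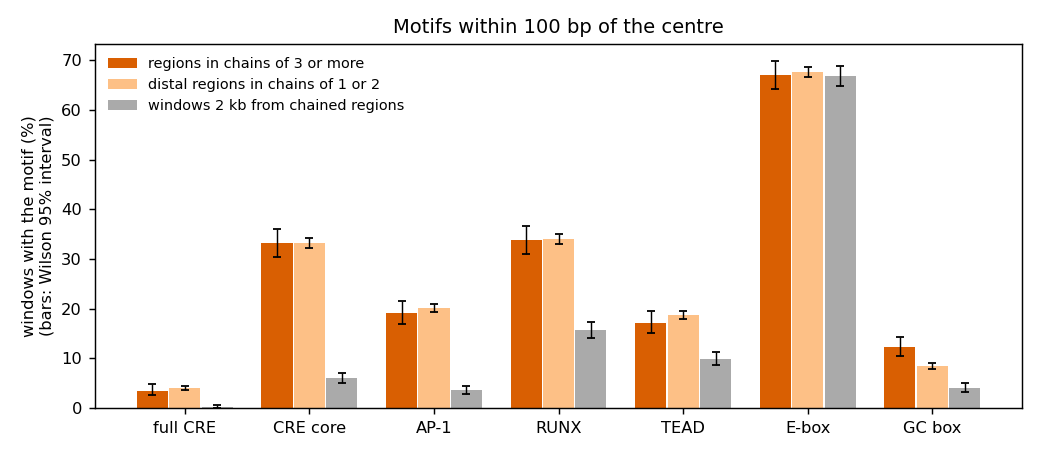
Share of 200 bp windows with each motif (vertical axis, percent, with Wilson 95% intervals) for the 1096 chained regions, the 8677 unchained distal regions and 2103 windows 2 kb from chained regions. Chained and unchained bars stand within 2 points of each other except for the GC box (12.2% and 8.48%), and the E-box is as frequent in the side windows (66.8%) as in the regions (67.1%).

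Inside the chains, some motifs differed between members without a vehicle peak and members of both vehicle lists. The 263 members called in 1 vehicle list were left out, and no allowance was made for the 15 motifs compared. AP-1 sites were found in 117 of 508 members without a vehicle peak (23.0%) and in 44 of 325 members of both vehicle lists (13.5%), a difference of 9.49 points (Newcombe 95% interval 4.10 to 14.6). GC boxes went the other way, with 7.48% and 17.8% (-10.4 points, -15.3 to -5.77), and the full CRE likewise, with 2.17% and 4.92% (-2.76 points, -5.83 to -0.250). TEAD sites were in 14.8% and 20% (-5.24 points, -10.7 to -0.0293). For the CRE core the shares were 38.0% and 35.7% (2.30 points, -4.45 to 8.90), and 39.4% and 31.8% among unchained regions. Unchained distal regions showed the same order, with AP-1 sites in 23.4% without and 13.9% with peaks in both vehicle lists, and GC boxes in 5.71% and 12.6%, so this is not particular to chains.

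Members could also be sorted by which motif they held. A CRE core without an AP-1 site was found in 308 members, with median percentiles of 82.4 and 75.8 in the forskolin lists. An AP-1 site without a CRE core was found in 154, with 53.8 and 42.2, and both in 55, with 72.5 and 65.2. The largest set, 579 members (52.8%), held neither and had medians of 59.8 and 49.0. At the level of chains, 241 of 326 had a CRE core in at least 1 member and 6 had it in every member. A chain in which some member had a CRE core and some member an AP-1 site occurred 113 times, and in 34 chains no member had either.

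In 7 of the 10 gene lists a larger share of genes had a chained region within 100 kb of a TSS than among protein-coding genes at large, by counts that were not tested. The lists were chosen with earlier results of these data known, so their shares are not independent of those results. The skeletal muscle list, among the 7, rests on 1 gene. Among all 22225 genes, 958 (4.31%) had a member within that distance, or 8.47% of the 11305 genes with any distal region of both forskolin lists there. Of 38 PTH-responsive genes 7 had one (18.4%), namely Tnfsf11, Mmp14, Lif, Lrp6, Vdr, Wisp1 and Smad3. Of 32 osteoblast lineage genes 6 had one (18.8%), namely Alpl, Sparc, Col1a1, Col5a1, Dlx3 and Prrx1. For cAMP target genes the count was 5 of 46 (10.9%), namely Fos, Fosb, Nr4a1, Atf3 and Nfil3. Read against genes with any distal region nearby, these are 7 of 34, 6 of 25 and 5 of 39.

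A chain within 100 kb of a listed gene can lie closer to another gene. The nearest member to Vdr, the vitamin D receptor gene, was 39524 bp away in a chain that overlaps Hdac7. For the collagen gene Col1a1 it was 33735 bp away in a chain that overlaps Ppp1r9b, and for Prrx1, a homeobox gene of limb mesenchyme, 48751 bp away in a chain nearer to Gorab. Mmp14, a membrane-bound collagenase gene, overlapped its chain, and a member lay 2097 bp from a TSS.

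In the other lists, chains lay near 4 of 31 TGF-beta and Wnt genes (12.9%: Tgfb3, Tgfbr1, Smad6 and Fzd2), 2 of 25 genes of the cytoskeleton and adhesion (8%: Cnn2 and Tpm1, the latter with 2 chains and 8 members), and 2 of 22 housekeeping CREB targets (9.09%: Ccna2 and Tomm20). Among markers of other cell types they lay near 0 of 10 adipocyte, 0 of 10 chondrocyte, 0 of 7 haematopoietic or osteoclast and 1 of 10 skeletal muscle genes (10%: Ckm, which lies 72324 bp from the nearest member of the Fosb chain). With equal lists 8 of the 230 listed genes had a chain within 100 kb, against 27 here, and without forskolin replicate 2 there were 53. The share over all protein-coding genes was not counted under those settings, so these counts cannot be read against it.

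Chains built from each list alone were more numerous in the forskolin libraries. With the same distance rules, 138 and 33 chains of 3 or more distal peaks were found in the vehicle replicates and 881 and 442 in the forskolin replicates. Vehicle lists averaged 85.5 ± 74.3 chains and forskolin lists 661.5 ± 310 (SD, n = 2 each), and the groups did not overlap. These counts are a description, since the forskolin lists and the spacing made the selection and 2 libraries against 2 cannot pass a permutation test. Longer lists make denser chains by construction, and the forskolin lists held 16300 and 11102 distal peaks against 6707 and 3720. When each list was limited to its 10180 highest-scoring peaks, the counts were 52 and 33 against 113 and 104, still without overlap. The distal share of peaks was also higher in the forskolin lists, at 63.8% and 57.3% against 45.7% and 36.5%, and its part in these counts was not tested.

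**Figure D5:**
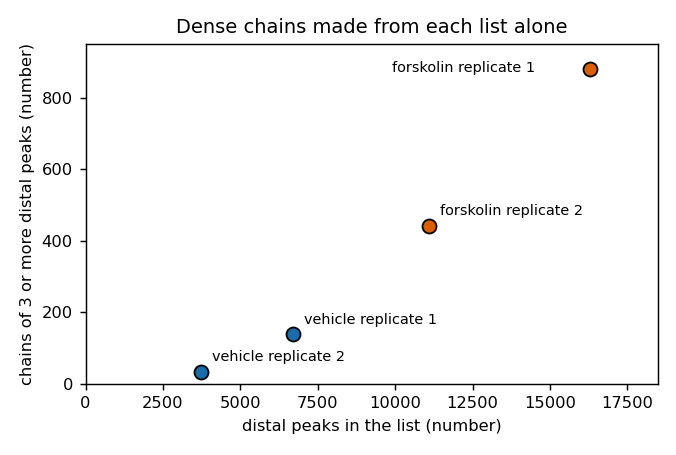
Number of chains of 3 or more distal peaks made from each list alone (vertical axis) against the number of distal peaks in that list (horizontal axis), with 1 point per library. Both the number of distal peaks and the number of chains are lowest in vehicle replicate 2 (3720 and 33) and highest in forskolin replicate 1 (16300 and 881).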

How the data were processed

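Phospho-CREB was measured by ChIP-seq in 2 vehicle and 2 forskolin libraries, grouped by sample title. The authors deposited 1 peak list per library, so replicates had not been pooled. Reads were processed with Bowtie and HOMER on build mm9, per the submitters' processing notes, while tool versions, peak-calling thresholds and duplicate handling are not stated in these sources. Each peak's deposited score has no stated scale, so scores only ranked peaks within a list, and ties share the highest percentile. Peaks are 301 to 311 bp wide.

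Merging, distance and chain rules are given with the results. The merging and chain rules were tested on simulated lists in which every region counted as distal. The distance rule was thus not tested, and no planted gap lay at the 12500 bp limit. NCBIM37 (mm9) with GENCODE M1 supplied sequence and the TSS of 22225 protein-coding genes, the mitochondrial ones left out. Of the listed names Icer, Cebpd, Spi1, Ocstamp and Dcstamp matched no gene. Shares have Wilson and differences Newcombe 95% intervals, which cover counting error only. The central 200 bp of each distal region was sought elsewhere in the genome with BLAST 2.17.0 (90% identity over 150 bp). Python 3.11.15 was used with pysam 0.24.0, scipy 1.17.1, numpy 2.4.6 and matplotlib 3.10.9.

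The members, gene lists and motifs were chosen with earlier results of these data known. Chains were named as the 10 largest, up to 12 near genes of the cAMP, PTH and osteoblast lists, the 5 with the highest median forskolin rank, and the 5 largest with no and with full vehicle calling, 35 in all. Other sequences and chains are named where a count is given. Alternatives changed the merging, linking, distance, list depth, motif window, gene window and library set.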

Additional observations from a re-analysis of the deposited data

How the results depend on the processing

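Member and chain counts follow the distance and depth rules. There were 66 regions in 22 chains at 5 kb, 2647 in 688 at 25 kb, 358 in 80 with chains of 4 or more, 244 in 74 with the top 50% of each list and 223 in 68 with equal lists, and 1090 to 3120 in 324 to 880 when a library was left out. Listed genes with a chain numbered 2, 53, 10, 8 and 8 under those 5 settings, 27 to 53 when a library was left out, and 20 within 50 kb. The share over all protein-coding genes was not counted under these alternatives. The share of members without a vehicle peak was 33.3% at 5 kb, 61.9% with the top 50%, 42.2% with equal lists and 49.4% to 67.6% without 1 library. Its difference from unchained regions, 0.159 points, turned to -13.0 at 5 kb, -1.56 at 25 kb, -2.44 with chains of 4 or more, -0.0423 beyond 2.5 kb from a TSS and -0.980 with the top 50%, and ran from -3.85 to 0.529 without 1 library. With equal lists the difference was 3.655 points (-2.85 to 10.41). At 5 kb its interval (-23.2 to -0.912, 66 regions) did not include 0. The CRE core difference, -0.0247 points, turned to 0.0374 at 25 kb, 0.685 beyond 2.5 kb, 0.160 without regions that match elsewhere, 0.397 and 0.0437 with windows of 50 and 150 bp, and -1.35 to 0.363 without 1 library. It was -7.44 at 5 kb (-16.5 to 4.28), -4.68 with equal lists (-11.3 to 2.10), -3.09 with chains of 4 or more (-7.71 to 1.95) and -2.78 with the top 50% (-9.13 to 3.70). For AP-1 the difference was 1.25 points at 5 kb, -1.95 (-3.68 to -0.171) at 25 kb and -1.68 to -0.977 without 1 library, of which -1.68 (-3.19 to -0.118), without forskolin replicate 2, did not include 0. With 1 region per chain, the highest-ranked, the share without a vehicle peak was 31.9%, its difference -13.4 points (-18.4 to -8.07) and the CRE core difference 12.3 points (6.81 to 17.8). That choice takes the strongest of 3 or more regions in chains and of 1 or 2 elsewhere, and its part in these differences was not tested. Leaving out a forskolin library loosens the rule to 1 forskolin peak. The chains per list kept their direction under all 14 alternatives, some of which could not change them. The overlap, joining and genome-match settings do not enter these counts, so the mean difference of 576 chains was fixed there. With the replicate number as a replicate block it was likewise the same 576 chains by construction, with no test read from 2 pairs. Nothing in the labels says that equal numbers mark a shared culture. Depth is not given, so a peak missing from a list cannot be told apart from 1 below that list's threshold.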

Other observations

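The share of distal forskolin regions that lay in chains is given by chromosome as a description, since members come in blocks of 3 or more. It was 61 of 359 (17.0%, 17 chains) on chromosome 16, 112 of 716 (15.6%, 33 chains) on chromosome 11 and 53 of 345 (15.4%, 17 chains) on chromosome 12. Chromosome 13 had 17 of 297 (5.72%, 5 chains) and chromosome X 3 of 67 (4.48%, 1 chain). In 23 places 2 or more chains lay within 100 kb of each other, and these took in 49 of the 326 chains. A stretch of chromosome 2 near Rxra, a retinoid receptor gene, and Col5a1, a fibrillar collagen gene, held 3 chains and 9 members in 88.0 kb, and a stretch of chromosome 11 with Sphk1 and Rhbdf2 held 3 chains and 9 members in 225 kb.

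The chain spans also contained regions that were not members. There were 55 distal regions with a peak in 1 forskolin list, 16 with vehicle peaks alone, of which 4 were in both vehicle lists, and 12 within 1 kb of a TSS.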
